A study of Mus musculus with 16 samples.

Results

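The adult lungs of female mice with second-hand smoke (SHS) exposure before birth were compared with those of females whose exposure before birth was to filtered air. The arrays were taken by their titles, which give sex and exposure, and not by any measured value. They were 4 SHS and 4 air females, 8 of the 16 arrays of the series, and the other 8 hold the same comparison in males. Every female was a Balb/c mouse, an inbred strain much used in allergy research, and 1 left lung per mouse was taken at 23 weeks of age. Sidestream smoke stood in for SHS at a particle load of 10 mg/m3, given 5 h daily on all 7 days of the week, and the controls received filtered air on the same schedule. As adults both groups received the egg white allergen ovalbumin (OVA) by injection at 19 and 21 weeks, and they inhaled OVA aerosol on alternate days in weeks 22 and 23. The smoke contrast was therefore made among allergen-challenged lungs, and no lung without OVA was analysed here. Total RNA was hybridized to Affymetrix Mouse Genome arrays, 1 mouse per array, and each probe set has a log2 value, so a difference of 1 is a doubling. The sources used here name no mother or litter, so some lungs may be littermates. In the main fit the p-values of genes measure the spread between lungs within groups, pooled over all 16 arrays, males included. Where females alone are named, the spread is theirs.

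OVA given first by injection and then as an aerosol sets up allergic airway inflammation. Type 2 helper T cells release interleukins that draw eosinophils, turn airway epithelium towards mucus and drive macrophages to an arginase-rich, alternatively activated state. Neutrophils are drawn mainly by a separate set of chemokines that act on the receptor CXCR2, and dividing cells express DNA replication genes in S phase and spindle genes in mitosis. In whole lung these programmes are read as one mixture, and fewer cells of a type cannot be told apart from less RNA per cell.

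The tissue label held: the surfactant gene Sftpc lay at 14.98 to 15.16 and the club cell gene Scgb1a1 at 14.91 to 15.14 in all 8 lungs, close to the highest value in the table, 15.2. The female arrays correlated over all probe sets at 0.99 to 0.997. SHS replicate 4 stood apart from its group: its mean correlation was 0.992 with the other SHS lungs and 0.995 with the air lungs. It was the lowest SHS lung in 479 of the 599 genes called higher and the highest in 73 of the 123 called lower, so results are given with and without it where it matters. That lung was singled out by these same values. Differences and adjusted p-values without it are therefore descriptions of the other lungs and not independent support. Signs of RNA quality did not pass a test between the groups: the 3′ minus 5′ difference of the Actb control probe sets was 0.20 ± 0.03 (SD, n = 4) in air and 0.18 ± 0.01 in SHS lungs (two-sided exact permutation p = 0.486). The same difference for Gapdh was -0.44 ± 0.03 and -0.43 ± 0.06 (exact permutation p = 0.743). The hybridisation controls averaged 10.84 ± 0.12 and 10.72 ± 0.13 (exact permutation p = 0.257), and the spiked RNAs 4.08 in both (exact permutation p = 0.971). The spiked RNAs, at 4.06 to 4.12, lay well below the median of probe-set means (7.02), so their test could show little about labelling. All 4 tests had an adjusted p of 0.971, and 0.0286 was the smallest p that 4 against 4 allows.

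Of 45037 probe sets, 1294 passed an adjusted p of 0.05 in limma and are named called here, which is 2.87%. Of these, 1061 were higher (2.36%) and 233 lower (0.517%) in SHS lungs. With 1 probe set for each of 18193 genes, 722 genes were called (3.97%), 599 higher (3.29%) and 123 lower (0.676%). Of these, 380 had more than 1 probe set, and in 171 another one was called in the same direction. In none was another called in the opposite direction. The rises were the larger changes: 52 genes rose and 2 fell at least 2-fold, and the median fold was 1.39 among higher and 1.32 among lower genes. All SHS lungs lay above all air lungs in 520 of the 599 higher genes, and below them in 108 of the 123 lower genes, which the calling itself favours; over all genes these shares were 7.74% and 2.65%. The number of calls leaned on single lungs. Without SHS replicate 4, 1393 genes were higher (7.66%) and 627 lower (3.45%), and these included 711 of the 722. Without SHS replicate 1, 2 or 3, or without air replicate 2, 3 or 4, between 338 and 402 genes were higher and between 49 and 64 lower, and 306 of the 722 were called in all 8 fits that left out 1 female lung. With the spread taken from the 8 females only, 235 genes were higher (1.29%) and 25 lower (0.137%). With quantile normalization the split of probe sets was 861 higher and 359 lower, a share of 70.6% higher in place of 82%.

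**Figure D1:**
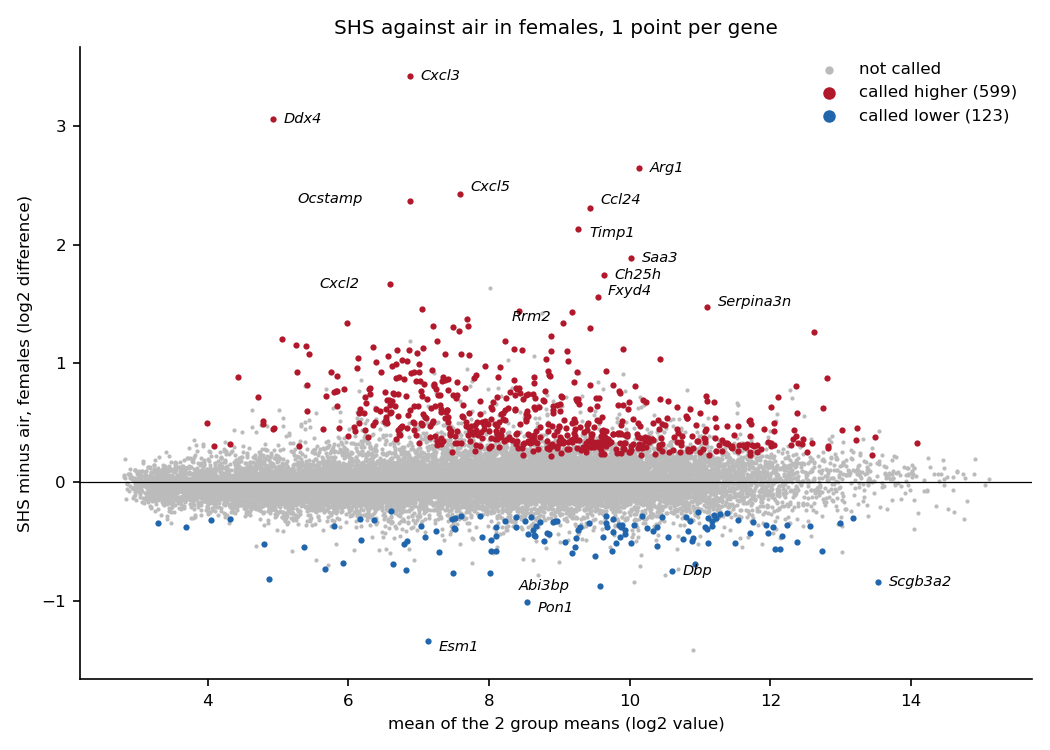
Each point is 1 of 18193 genes, placed by the mean of its 2 group means (x axis, log2 value) and its SHS minus air difference in females (y axis, log2); red points are the 599 genes called higher, blue the 123 called lower and grey the rest. The called genes above 0 are more numerous and reach further, up to Cxcl3 at 3.42, than those below 0, where Esm1 at -1.34 is the lowest called.

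The smallest p belonged to Serpina3n (chromosome 12, 104406646 to 104414334), which encodes a secreted inhibitor of serine proteases made in acute inflammation. It read 10.31, 10.31, 10.29 and 10.53 in the 4 air lungs and 11.87, 12.03, 11.82 and 11.63 in the SHS lungs. The groups were far apart, and SHS replicate 4 was only a little below the others, and the rise was 1.48 ± 0.12 (SE, n = 4 per group; limma, adjusted p = 1.72e-05). Ch25h (chromosome 19), whose enzyme makes the immune oxysterol 25-hydroxycholesterol, was at 8.94, 8.54, 8.60 and 8.96 in air and 10.65, 10.84, 10.67 and 9.86 in SHS lungs. Timp1 (chromosome X), an inhibitor of matrix metalloproteinases, was at 8.46, 8.09, 7.93 and 8.35 against 10.45, 10.95, 10.50 and 9.45. In both genes SHS replicate 4 was the lowest SHS lung and still lay above every air lung. Without it their differences were 1.96 and 2.43 in place of 1.75 and 2.13. The 20 higher genes with the smallest p, taken among called genes whose higher group mean passed the median level of all probe sets (7.02), so that a gene low in air could enter through its SHS lungs, were Ect2, Rrm2, Cdca5, Birc5, Spc25, Plk4, Prim1, Dtl, Bub1, Cdc6, Aurka, Zwilch, Ube2t, Shcbp1, Cxcl3, Afp and Selp besides Serpina3n, Ch25h and Timp1. Afp, the fetal serum protein alpha-fetoprotein, was low in these lungs, at 5.90 to 6.28 in air and 6.89 to 7.31 in SHS females, and differed by 1.06 ± 0.12 (adjusted p = 0.000227).

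**Figure D2:**
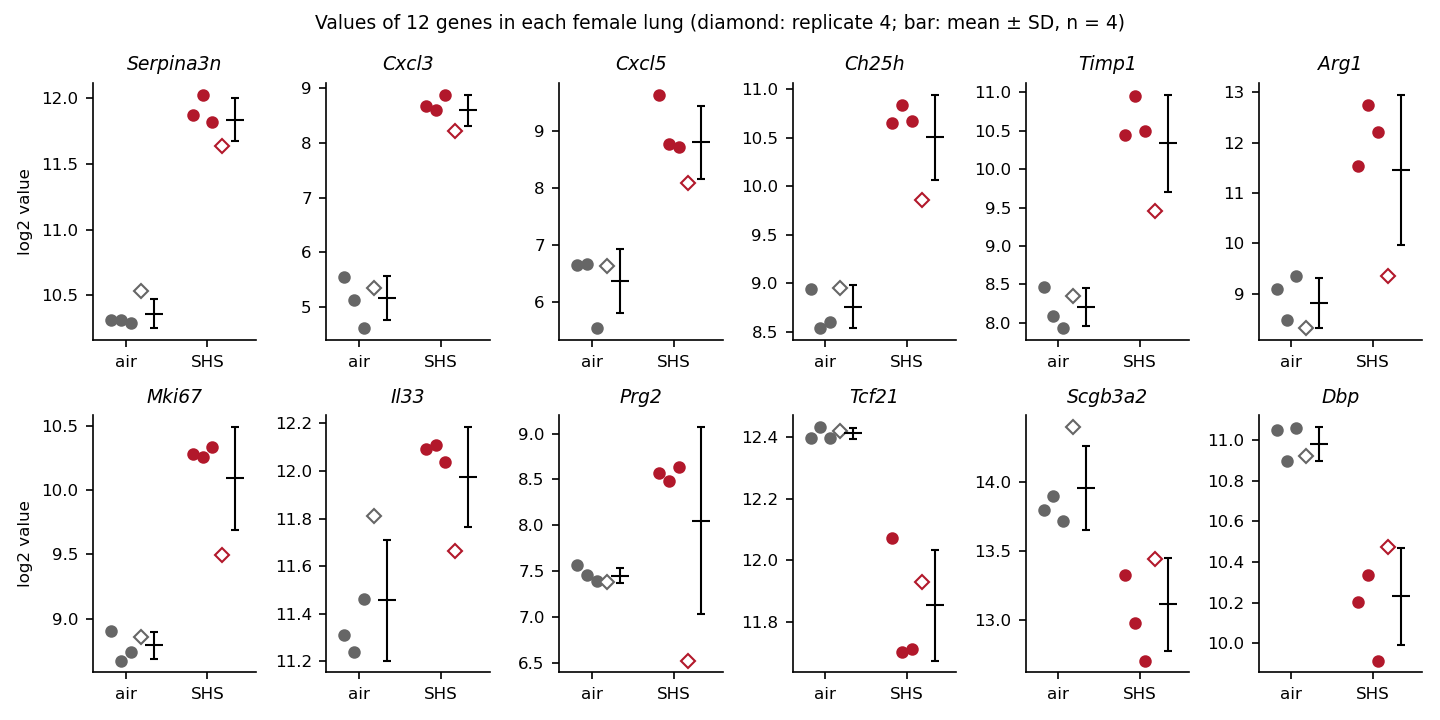
Log2 values of 12 genes in each of the 8 female lungs, with air in grey, SHS in red, replicate 4 of each group as an open diamond, and bars at the group mean ± SD (n = 4). Serpina3n, Cxcl3 and Tcf21 separate the groups completely, whereas in Il33 and Prg2 SHS replicate 4 falls within or below the air lungs.

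The list of ligands and receptors of CXCR2, which guides neutrophils, had the highest median of the 73 gene lists compared. Lists and members were chosen with earlier results of these data known, so this rank is a description only. Counts of called members in this and later lists are to be read beside the 3.97% of all genes called. For the fit without SHS replicate 4 these shares are 7.66% higher and 3.45% lower. Of 7 measured genes, 4 rose and none fell (57.1% called, where 3.97% of all genes were). The median difference was 1.10, which is the value of Cxcl1, and the median of all genes was 0. Cxcl3 read 5.55, 5.14, 4.62 and 5.35 in air and 8.67, 8.60, 8.87 and 8.21 in SHS lungs, a gap of more than 2 log2 units between the groups. Cxcl5, made by lung epithelium, read 6.65, 6.66, 5.54 and 6.63 against 9.63, 8.77, 8.71 and 8.08. Cxcl2, made largely by macrophages, read 5.64, 5.54, 5.87 and 5.95 against 7.57, 7.36, 6.90 and 7.86, and here SHS replicate 4 was the highest lung. Cxcl1 read 8.25, 8.43, 8.66 and 8.90 against 10.09, 9.49, 9.02 and 10.07, without overlap but by the narrowest margin of the 4. Its difference of 1.10 ± 0.29 had an adjusted p of 0.0451, and it was called in 1 of the 8 fits that left out a lung (adjusted p = 0.147 without SHS replicate 1). Cxcl15, the lung's own constitutive chemokine, was at 14.29 to 14.50 in air and 14.48 to 14.59 in SHS lungs, near the top of the range (adjusted p = 0.369). Ppbp, a platelet chemokine, had a difference of -0.09 (adjusted p = 0.913). The receptor gene Cxcr2 itself was at 7.31 to 7.80 and 7.64 to 8.06 (0.25, adjusted p = 0.376). Of 16 neutrophil markers only Il1r2, the decoy receptor of interleukin 1, rose (0.74, adjusted p = 0.0127). The granule genes S100a8 and S100a9 had differences of 0.34 and 0.39 (adjusted p = 0.561 and 0.475), and their highest lung was SHS replicate 4, at 11.59 and 11.55. Il1r2 was called in 6 of the 8 fits without 1 lung (up to 0.0525, without SHS replicate 2). The mean level over the neutrophil list was 7.20 to 7.57 in air and 7.41 to 7.69 in SHS lungs, and its part in the chemokine result was not tested.

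The 3 neighbouring genes Cxcl1, Cxcl2 and Cxcl3 on chromosome 5 rose together, so the 250 bases before their start sites are shown, from RefSeq on GRCm38.p6, all on the plus strand. Capitals mark matches to the NF-kB consensus, searched on both strands with any base allowed at 2 of its 10 letters. The windows are chr5:90890995-90891244 for Cxcl1, chr5:90903649-90903898 for Cxcl2 and chr5:90785851-90786100 for Cxcl3.
Cxcl1: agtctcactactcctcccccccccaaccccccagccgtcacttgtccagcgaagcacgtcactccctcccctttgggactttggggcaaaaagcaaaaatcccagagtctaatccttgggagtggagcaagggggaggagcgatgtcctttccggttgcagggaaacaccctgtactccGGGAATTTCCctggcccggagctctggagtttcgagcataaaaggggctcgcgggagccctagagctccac
Cxcl2: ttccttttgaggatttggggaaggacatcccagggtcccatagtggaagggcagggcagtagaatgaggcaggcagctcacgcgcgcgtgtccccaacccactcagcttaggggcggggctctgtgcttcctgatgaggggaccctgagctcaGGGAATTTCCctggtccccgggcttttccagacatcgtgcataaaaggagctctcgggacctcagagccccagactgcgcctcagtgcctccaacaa
Cxcl3: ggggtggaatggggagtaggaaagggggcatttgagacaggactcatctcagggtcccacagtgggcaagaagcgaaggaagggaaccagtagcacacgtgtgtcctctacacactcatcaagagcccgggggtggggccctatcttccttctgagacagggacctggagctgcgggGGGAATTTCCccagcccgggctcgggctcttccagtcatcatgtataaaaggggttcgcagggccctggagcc
Each window held 1 match, the same 10 letters GGGAATTTCC, beginning 71, 97 and 73 bases before the start. The pattern was in 322 of 32851 such windows of 27025 genes, 0.98%, and in 16 of 596 windows of genes called higher, 2.68%. In the list of NF-kB targets and cytokines 6 of 34 windows held it. In the CXCR2 list 3 of 6 did, and these are the 3 shown. A match describes letters only and is not evidence that a factor binds there.

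Most genes of DNA replication and S phase rose. Of 34 measured, 30 were called higher and none lower, the median difference was 0.56, and all 34 differences were above 0. The list medians of the 4 SHS lungs, taken against the air mean, were 0.54, 0.64, 0.68 and 0.32, while the air lungs lay between -0.05 and 0.03, so SHS replicate 4 was lower than its group but above air. Rrm2, a subunit of the enzyme that makes deoxynucleotides, read 8.52, 8.28, 8.51 and 8.53 in air and 10.03, 10.12, 10.03 and 9.40 in SHS lungs, a 2.7-fold rise. Cdc6, which loads the replicative helicase, rose by 1.11 ± 0.13 (adjusted p = 0.000259). The helicase subunits Mcm5 and Mcm6 rose by 0.93 ± 0.11 and 0.90 ± 0.15, and Pcna, the sliding clamp of the polymerases, by 0.39 ± 0.08 (adjusted p = 0.0141). Pcna was called in 4 of the 8 fits without 1 lung (highest adjusted p = 0.0569, without SHS replicate 3). The primase Prim1 rose by 0.61 ± 0.07 and Dtl, which marks replication proteins for destruction, by 0.97 ± 0.11. Uhrf1, which carries DNA methylation through replication, rose by 0.86 ± 0.12 (adjusted p = 0.000585). The 4 members not called were E2f1, Tyms, Chaf1b and Fen1, with differences of 0.24, 0.22, 0.19 and 0.11. Between 23 and 30 members were called with 1 lung left out.

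Mitosis genes rose as well, with a larger median. Of 46 measured, 40 were called higher and none lower, with a median of 0.86 and all 46 differences above 0. Their medians in the 4 SHS lungs were 0.84, 1.05, 0.99 and 0.46. Ube2c, which supplies ubiquitin for the exit from mitosis, read 8.61, 8.20, 8.37 and 8.32 in air and 9.74, 10.00, 10.05 and 9.08 in SHS lungs. Mki67, the proliferation antigen Ki-67, read 8.90, 8.67, 8.74 and 8.86 against 10.28, 10.25, 10.33 and 9.49, and Cdk1, the kinase that drives mitotic entry, 8.13, 7.74, 7.93 and 7.87 against 9.01, 9.35, 9.31 and 8.45. In all 3 the groups were apart and SHS replicate 4 lay between the other SHS lungs and air. Birc5 (survivin), Top2a and Ccna2 (cyclin A2) rose by 1.38 ± 0.15, 1.23 ± 0.15 and 1.12 ± 0.17 (adjusted p = 0.000227, 0.000318 and 0.00141). The spindle checkpoint kinase Bub1, the kinase Aurka and the cytokinesis factor Ect2 rose by 1.18 ± 0.14, 0.89 ± 0.11 and 0.85 ± 0.09. The second probe set of Bub1 had a difference of 0.16 and that of Aurka -0.08, and neither was called. Kinetochore genes were among those that rose, with Spc25 at 0.99 ± 0.11 (a second probe set had 0.08, not called) and Zwilch at 0.92 ± 0.11. Plk4, the kinase of centriole duplication, rose by 0.61 ± 0.07. Cdca5, which holds sister chromatids together, rose by 1.46 ± 0.16. The 6 not called included the mitotic transcription factor Foxm1, at 0.05. Between 35 and 42 members were called with 1 lung left out.

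**Figure D3:**
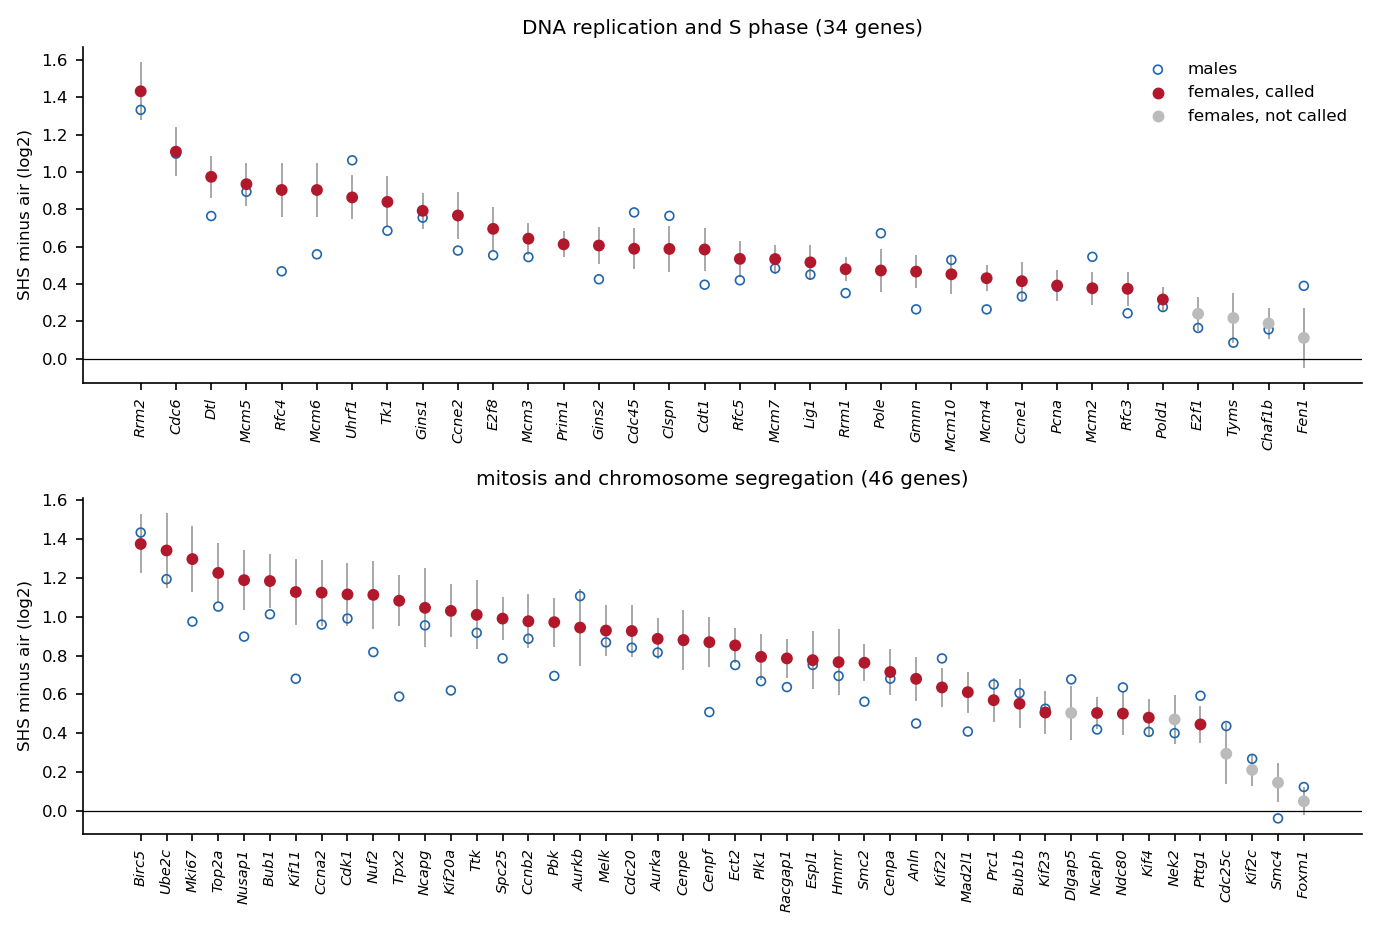
SHS minus air difference (y axis, log2) of each measured gene of the S phase list (upper panel, 34 genes) and the mitosis list (lower panel, 46 genes), with females as filled points (red called, grey not called) and SE bars, and males as open circles. Every female point lies above 0, and 1 male point, Smc4, lies at or below it.

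Promoters of division genes often carry CCAAT boxes beside a cell cycle homology region (CHR), so those of 3 mitosis genes are shown with both in capitals. CCAAT and TTTGAA were searched on both strands in the 250 bases before the RefSeq start on GRCm38.p6. The windows are chr2:164769679-164769928 on the plus strand for Ube2c, chr10:69352913-69353162 on the minus strand for Cdk1 and chr7:135716380-135716629 on the minus strand for Mki67, each written 5′ to 3′ along its gene.
Ube2c: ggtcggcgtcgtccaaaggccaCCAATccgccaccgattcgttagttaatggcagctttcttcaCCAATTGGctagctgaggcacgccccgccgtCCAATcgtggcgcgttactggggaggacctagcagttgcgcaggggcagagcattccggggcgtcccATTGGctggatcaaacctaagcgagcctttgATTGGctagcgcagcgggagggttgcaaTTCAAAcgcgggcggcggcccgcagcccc
Cdk1: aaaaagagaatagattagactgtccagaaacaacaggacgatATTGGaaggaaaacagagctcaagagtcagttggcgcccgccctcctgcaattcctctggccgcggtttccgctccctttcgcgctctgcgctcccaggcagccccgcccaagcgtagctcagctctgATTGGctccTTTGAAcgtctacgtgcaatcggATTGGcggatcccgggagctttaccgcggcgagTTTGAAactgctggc
Mki67: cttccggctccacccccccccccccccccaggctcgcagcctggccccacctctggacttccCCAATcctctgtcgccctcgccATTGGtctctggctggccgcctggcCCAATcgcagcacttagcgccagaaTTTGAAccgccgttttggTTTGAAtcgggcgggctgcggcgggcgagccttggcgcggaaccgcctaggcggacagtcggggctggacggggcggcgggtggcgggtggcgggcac
The windows held 6, 3 and 3 CCAAT boxes and 1, 2 and 2 CHR matches, and 2 of the CCAAT boxes of Ube2c overlap on opposite strands. TTTGAA was in 15 of 39 windows of the mitosis list (38.5%) and 16% of all windows, and CCAAT in 29 of 39 (74.4%) and 33.8%. In the S phase list TTTGAA was in 4 of 33 windows and CCAAT in 18, and TTTCCCGC, the letters searched for E2F, in 2, with 0.895% of all windows. These are shares of letters and not of bound sites.

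Genes that answer DNA damage or hold back the cycle moved in part, where 3.97% of all genes were called. Of 22 p53 target and DNA damage genes 5 rose, and 3 of these, the repair genes Brca1 and Rad54l and the checkpoint kinase Chek1, are also expressed with replication, at 0.88 ± 0.13, 0.70 ± 0.11 and 0.69 ± 0.14. Gadd45g and Ccng1, stress-responsive growth regulators, rose by 0.51 ± 0.11 and 0.37 ± 0.06 (adjusted p = 0.0138 and 0.00296). Of 18 CDK inhibitors and G1 regulators, Myc and Cdkn1a (p21) rose, by 0.67 ± 0.12 and 0.36 ± 0.09 (adjusted p = 0.0045 and 0.0423), and Ccnd1 (cyclin D1) had a difference of 0.02 (adjusted p = 0.923). The call of Cdkn1a held in 3 of the 8 fits without 1 lung, up to an adjusted p of 0.127 without air replicate 3, and that of Gadd45g in 6, up to 0.0581 without air replicate 2. Without SHS replicate 4, 5 members of this G1 list were higher, as were 7.66% of all genes. Of 24 DNA methylation and chromatin genes Hells, a remodeller of dividing cells, rose by 1.08 ± 0.15 and Hat1, a histone acetyltransferase, rose by 0.33 ± 0.08, in 3 of 8 fits (up to 0.107, without SHS replicate 3), and the methyltransferase Dnmt1 differed by 0.28 (adjusted p = 0.0746). Without SHS replicate 4, 5 of these were higher and 1 lower, where 7.66% of all genes were higher and 3.45% lower. Tissues rich in dividing cells can be taken with a lung. Of 9 thymus markers none was called, with a median of -0.11 and a mean level of 5.63 to 5.77 in air and 5.56 to 5.75 in SHS lungs. Of 8 lymph node and germinal centre markers only Fcer2a was called, with a median of 0.22, and their part in the division result was not tested.

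Of 19 measured genes of alternatively activated macrophages 9 rose and none fell, with a median of 0.45, or 13 and 0.70 without SHS replicate 4, and 8 or more were called without any 1 lung, but 3 with the spread taken from the females alone. Arg1, the arginase of these cells, read 9.10, 8.48, 9.36 and 8.31 in air and 11.53, 12.74, 12.22 and 9.36 in SHS lungs. The highest air lung and SHS replicate 4 had almost the same value, and the difference was 3.35 without that lung (adjusted p = 1.64e-05) and 2.65 with it (adjusted p = 0.00808, or 0.0559 from the females alone). Pdcd1lg2, which encodes the checkpoint ligand PD-L2, read 7.88, 7.64, 7.58 and 7.74 against 9.07, 9.83, 9.79 and 7.93, and so SHS replicate 4 again stood next to air. Mrc1, the mannose receptor CD206, read 11.10, 10.70, 10.46 and 10.67 against 11.27, 11.57, 11.69 and 11.28, an even rise of 0.72 ± 0.12 (adjusted p = 0.0027). The ribonuclease gene Rnase2a, which has close paralogs that a probe set may not separate, rose by 1.26 ± 0.20. The arginine transporter Slc7a2 rose by 0.65 ± 0.09 (adjusted p = 0.000911). Egr2 and the haemoglobin scavenger receptor Cd163 rose by 1.10 ± 0.22 and 0.88 ± 0.18, with overlap between the groups. Retnla and Chil3, which are among the most abundant type 2 genes of the lung, had values above 14 in every lung and differences of 0.20 and 0.18 (adjusted p = 0.118 and 0.113). Chil4, a close copy of Chil3, had a difference of 0.34 (adjusted p = 0.259).

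Other macrophage genes were less uniform. Of 17 genes of multinucleated macrophages and osteoclasts 2 rose, 1 of them Ocstamp, which is needed for cell fusion, at 5.95, 5.47, 5.67 and 5.68 in air and 8.16, 9.02, 8.82 and 6.23 in SHS lungs. Its partner Dcstamp read 6.76, 7.24, 6.64 and 6.40 against 7.63, 8.61, 8.29 and 6.18, so that 3 SHS lungs were above and SHS replicate 4 below all air lungs (0.92, adjusted p = 0.168; 1.42 and 0.000192 without it). The second call was the RANKL decoy Tnfrsf11b, at 0.50 ± 0.13, in 2 of the 8 fits without 1 lung (up to 0.159, without air replicate 2), and the phosphatase Acp5 differed by 0.42 (adjusted p = 0.313). Without SHS replicate 4, 6 of the 17 were higher. Markers of resident alveolar macrophages had 1 call in 14, Mrc1, and a median of 0.12. Of 16 markers of monocytes and interstitial macrophages only Apoe was called, and it fell by 0.51 ± 0.11 (adjusted p = 0.018; called in 5 of 8 fits, up to 0.0672 without air replicate 2). Their mean levels were 9.15 to 9.53 in air and 9.38 to 9.65 in SHS lungs for alveolar macrophages, and 10.11 to 10.20 and 10.10 to 10.34 for monocytes. What these markers contribute to the macrophage genes was not tested.

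Chemokines of the CC family split the SHS lungs in the same way. Of 25 measured, 6 rose and none fell, with a median of 0.38, and without SHS replicate 4 this became 16 and 0.61. The list medians of the 4 SHS lungs were 0.54, 0.59, 0.66 and 0.01. Ccl24, a ligand of the eosinophil receptor CCR3, read 8.29, 8.24, 8.16 and 8.41 in air and 10.53, 11.83, 11.55 and 8.44 in SHS lungs, so 3 lungs carried a rise of 3.03 and SHS replicate 4 was level with air. Ccl8 read 12.61, 12.05, 12.36 and 12.45 against 13.33, 13.27, 13.44 and 12.93, with every SHS lung above every air lung (0.88 ± 0.12, adjusted p = 0.000806). The monocyte attractants Ccl7 and Ccl12 rose by 0.92 ± 0.17 and 0.75 ± 0.14. Ccl22, a T cell attractant of dendritic cells and macrophages, and the receptor Ccr1 rose by 0.89 ± 0.21 and 0.84 ± 0.21. The eotaxin Ccl11 and the monocyte attractant Ccl2 had differences of 0.77 and 0.72 (adjusted p = 0.051 and 0.0801), and 0.99 and 0.91 without SHS replicate 4 (adjusted p = 0.00204 and 0.0112). The eosinophil receptor Ccr3 had a difference of -0.24 (adjusted p = 0.732). Ccl24 was called in 3 of the 8 fits without 1 lung (up to 0.0766, without SHS replicate 2), Ccl22 in 2 (up to 0.107, without air replicate 3) and Ccr1 in 2 (up to 0.118, without SHS replicate 3). Without any 1 of SHS replicates 1 to 3, or without air replicate 3, 3 CC members were called.

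Of 24 cytokines, receptors and regulators of type 2 inflammation 6 rose and none fell, with a median of 0.13. The counts were 10 higher and 1 lower without SHS replicate 4, and 2 higher with females alone. Il33, the epithelial alarmin, read 11.31, 11.24, 11.46 and 11.81 in air and 12.09, 12.11, 12.04 and 11.66 in SHS lungs, so SHS replicate 4 lay among the air lungs (0.52 ± 0.13, adjusted p = 0.044). Irf4, a factor of type 2 macrophages, dendritic cells and plasma cells, rose by 0.81 ± 0.19, the decoy receptor Il13ra2 by 0.81 ± 0.19, and the cytokine feedback inhibitors Cish and Socs3 by 0.65 ± 0.12 and 0.46 ± 0.11. Batf, a partner of Irf4 in T cells, rose by 0.32 ± 0.07. Of these only Cish was called in all 8 fits that left out 1 lung. Il33 was called in 2 (up to 0.142, without air replicate 2), Irf4 in 2 (0.0948, SHS replicate 1), Il13ra2 in 1 (0.11, SHS replicate 2), Socs3 in 3 (0.0793, SHS replicate 2) and Batf in 4 (0.0821, air replicate 2). Il5, the growth factor of eosinophils, read 5.27, 5.37, 5.18 and 5.06 in air and 5.63, 6.04, 5.74 and 5.32 in SHS lungs (0.47, adjusted p = 0.0866). Il4 and Il13 had differences of 0.36 and 0.47 (adjusted p = 0.28 and 0.217), or 0.51 and 0.67 without SHS replicate 4 (0.0493 and 0.0183). The alarmins Tslp and Il25 had differences of -0.42 and 0.02 (adjusted p = 0.137 and 0.943).

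Eosinophil markers showed the widest split among SHS lungs. None of 10 was called, and the list medians of the 4 SHS lungs were 0.32, 0.27, 0.46 and -0.82, where the air lungs lay near 0. Prg2, the granule major basic protein, read 7.57, 7.46, 7.40 and 7.39 in air and 8.57, 8.48, 8.64 and 6.52 in SHS lungs. Epx, eosinophil peroxidase, read 6.28, 5.80, 5.60 and 5.91 against 7.12, 7.09, 7.50 and 5.05. In both, SHS replicates 1 to 3 were above every air lung and replicate 4 below every one. Their differences were 0.60 and 0.79 with it (adjusted p = 0.47 and 0.377), and 1.11 and 1.34 without it (adjusted p = 0.00998 and 0.00985). The lung left out was picked by its own values, so the figures without it are a description only. Alox15 followed, at 0.24 with it and 0.75 without (adjusted p = 0.803 and 0.0151), whereas the surface markers Siglecf and Il5ra had differences of -0.32 and -0.09 (adjusted p = 0.567 and 0.864). Without SHS replicate 4, 5 markers were higher and 1 lower. The elastase Mmp12, an abundant macrophage gene, split in the same way, at 12.90, 12.95, 12.60 and 12.15 in air and 13.20, 13.85, 13.53 and 11.49 in SHS lungs (adjusted p = 0.671). Mucus genes gave 1 call of 21 (4.76%, near the 3.97% of all genes), the anion exchanger Slc26a4, at 0.81 ± 0.19 (2 of 8 fits, up to 0.108 without air replicate 3). The mucins Muc5ac and Muc5b had differences of 0.34 and -0.31, Agr2 0.49, and Clca1, at over 14 in every lung, -0.03, with adjusted p from 0.285 to 0.924. Of 15 mast cell and basophil markers none was called, with a median of -0.05.

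**Figure D4:**
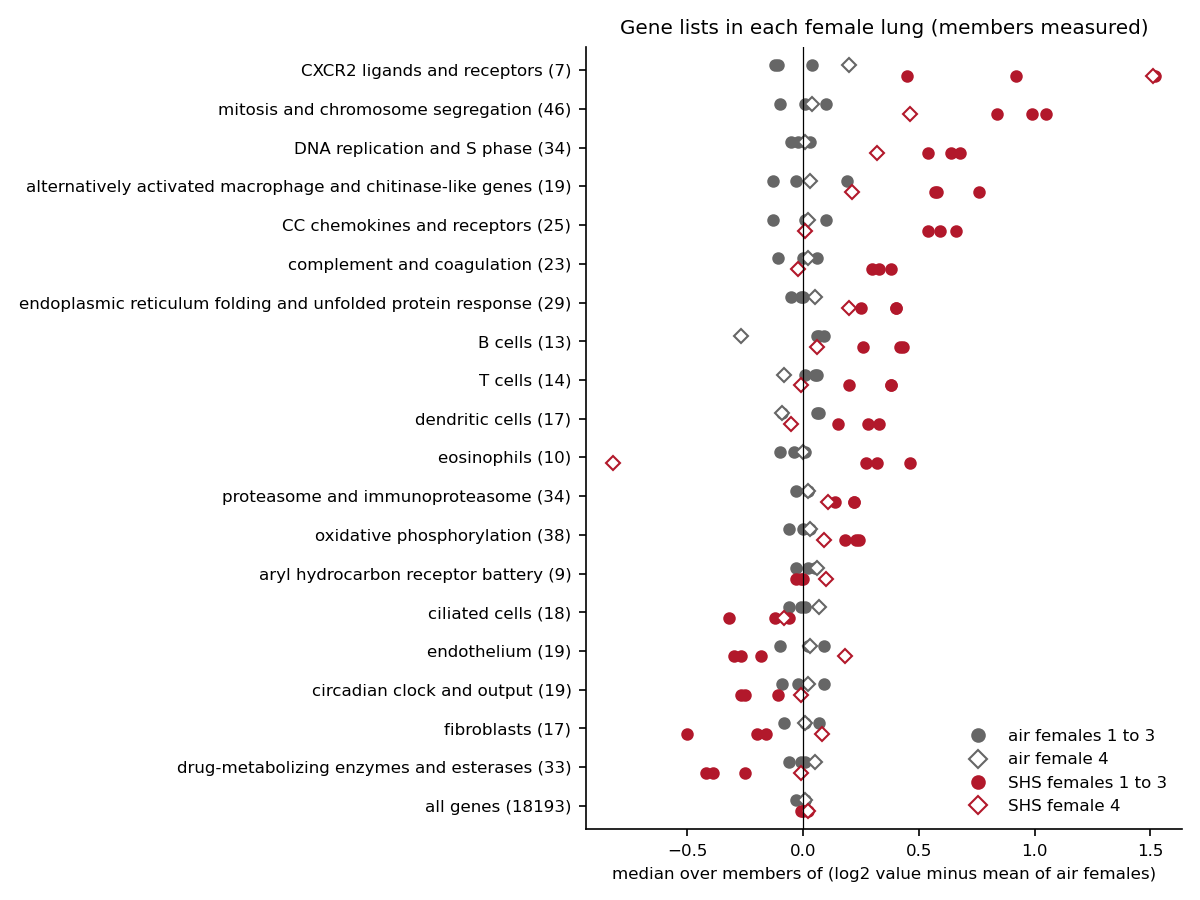
For 19 gene lists and for all genes, the median over members of the log2 value minus the air female mean (x axis), in each female lung, with air in grey, SHS in red and replicate 4 of each group as a diamond. SHS female 4 lies apart from the other SHS lungs towards air for lists such as mitosis (0.46) and CC chemokines (0.01), is level with the highest SHS lung for the CXCR2 list, at 1.51, and lies below all other lungs for eosinophils, at -0.82.

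Of 21 acute-phase and antimicrobial genes, whose proteins epithelium and liver secrete in inflammation, 4 rose and 17 were not called, while 8 were called without SHS replicate 4 and 2 with females alone. Saa3 read 9.54, 8.91, 8.74 and 9.10 in air and 11.48, 11.64, 11.24 and 9.49 in SHS lungs, so 3 SHS lungs were high and SHS replicate 4 overlapped air. Saa1, whose sequence is close to Saa2, was low but even, at 4.44 to 5.08 against 5.57 to 6.10 (1.16 ± 0.14, adjusted p = 0.000272). Cd14, a receptor for bacterial lipopolysaccharide, and ceruloplasmin (Cp), a copper carrier, rose by 0.69 ± 0.14 and 0.51 ± 0.10, and Lcn2, which withholds iron from bacteria, differed by 0.56 (adjusted p = 0.0546; 0.0249 without SHS replicate 4). Of 35 NF-kB targets and TNF, IL-1, IL-6 and IL-17 family genes 7 rose, from 1 without SHS replicate 2 to 14 without SHS replicate 4, and 2 to 5 without the others. Il1b lay at 8.85 to 9.51 in air and 9.75 or above in all SHS lungs (0.71 ± 0.14, adjusted p = 0.0082, called in all 8 fits). Il6 read 4.88, 4.31, 4.84 and 5.27 against 6.07, 6.70, 6.10 and 5.02 (1.15 ± 0.26, adjusted p = 0.0212), and was called in 3 fits (up to 0.0841, without air replicate 2). Il1a and the NF-kB cofactor Bcl3 rose by 0.31 ± 0.08 and 0.43 ± 0.11, in 3 and 2 of the fits (up to 0.131 without SHS replicate 2 and 0.151 without air replicate 3). Il1r2 was called in 6 (up to 0.0525, without SHS replicate 2). Tnf and Il17a had differences of 0.12 and -0.10 (adjusted p = 0.646 and 0.69).

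Of 23 complement and coagulation genes, some of which lung and macrophages make locally, 5 rose and 18 were not called, with a median of 0.32 and 17 differences above 0. The calls were 11 without SHS replicate 4, whereas without air replicate 3 or SHS replicate 2 or 3 they were 2, and with females alone 1. Coagulation factor F10 rose by 0.89 ± 0.16 and complement factor Cfb by 0.63 ± 0.11 (adjusted p = 0.00561 and 0.00375), both in every fit without 1 lung. Factor F7, tissue factor F3 and the protein C receptor Procr rose by 0.70 ± 0.16, 0.32 ± 0.07 and 0.33 ± 0.07, in 4, 2 and 3 of these fits (up to 0.0839 without air replicate 3, 0.066 without SHS replicate 3 and 0.084 without SHS replicate 2). Among 17 leukocyte adhesion molecules the selectin Selp, which holds rolling leukocytes on vessel walls, read 7.99, 7.88, 8.06 and 8.17 in air and 8.81, 8.83, 8.96 and 8.66 in SHS lungs (0.79 ± 0.10). Sele rose by 0.46 ± 0.12 in 2 of the fits (up to 0.154, without air replicate 2), and Vcam1 differed by 0.20 (adjusted p = 0.339). Of 20 genes of microbial sensing Clec4e, Ly96 and Tlr4 rose, by 0.58 ± 0.15, 0.43 ± 0.10 and 0.29 ± 0.07, and none of the 3 was called without air replicate 2, SHS replicate 1 or SHS replicate 3 (up to 0.105, 0.106 and 0.0965 in that order of genes). Of 23 prostaglandin and leukotriene genes the prostaglandin E synthase Ptges and the prostacyclin receptor Ptgir rose, by 0.56 ± 0.12 and 0.47 ± 0.11, in 5 and 2 of the fits (up to 0.063 without SHS replicate 2 and 0.111 without SHS replicate 1). Without SHS replicate 4, 7 of these genes were higher and 1 lower. Among 27 interferon-stimulated genes 1 rose, Socs1 (3.7%, near the 3.97% of all genes), and their median was 0.07. Interferon gamma (Ifng) itself differed by 0.33 (adjusted p = 0.159). Of 21 immediate early genes only Klf2, a factor of quiet endothelium and lymphocytes, was called (4.76%, also near that share). It fell by 0.43 ± 0.11, in 2 of the fits (up to 0.125, without SHS replicate 2).

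Lymphocyte lists had positive medians and calls in small numbers, where 3.97% of all genes were called. T cell markers had 1 call of 14 (7.14%), Cd8b1, and B cell markers 1 of 13 (7.69%), Fcer2a, with medians of 0.22 and 0.30. Without SHS replicate 4, 4 of each were called higher, as were 7.66% of all genes. Cd3e, part of the T cell receptor, had a difference of 0.20 and Cd79a, part of the B cell receptor, 0.15 (adjusted p = 0.29 and 0.803). Of 16 regulatory T cell and checkpoint genes 3 rose, the costimulator Tnfrsf9 (4-1BB), Il10 and Ctla4, by 0.89 ± 0.19, 0.71 ± 0.13 and 0.56 ± 0.13, while Foxp3, the defining factor of these cells, had 0.13 (adjusted p = 0.527). Of 9 genes of oxysterols and B cell placement 3 rose, Ch25h, the oxysterol-processing Cyp7b1 and the survival factor Tnfsf13b (BAFF), by 1.75, 0.57 and 0.61, and the oxysterol receptor Gpr183 had 0.24 (adjusted p = 0.302). Cxcl13, the chemokine of B cell follicles, read 8.02, 7.75, 8.59 and 7.81 in air and 9.49, 10.37, 10.42 and 7.58 in SHS lungs. Its value in SHS replicate 4 lay below all air lungs, and the difference was 1.43 (adjusted p = 0.0958) with that lung and 2.05 (adjusted p = 0.000192) without it. Among 17 other CXC and related genes Pf4 and Cxcr3 rose, by 0.77 ± 0.12 and 0.36 ± 0.09, and the homeostatic chemokines Cxcl12 and Cxcl14 fell, by 0.39 ± 0.09 and 0.48 ± 0.12. With 1 lung left out, Cxcr3 and Cxcl12 were called in 2 of 8 fits, Cxcl14 in 1, Cd8b1 in 3, Fcer2a and Ctla4 in 2, and Tnfrsf9 and Cyp7b1 in 7, with adjusted p up to 0.111, 0.0946, 0.115, 0.0901, 0.084, 0.094, 0.0544 and 0.0518. Dendritic cell markers had 2 calls of 17, Ccl22 and Batf3 (0.73 ± 0.15, called in 5 fits, up to 0.0586 without air replicate 3), and 7 without SHS replicate 4. Of 11 plasma cell markers 1 rose, Irf4, and of 13 markers of NK and cytotoxic cells none.

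Chaperones of the endoplasmic reticulum, where secreted proteins fold, rose in 13 of 29 measured genes and none fell. All 29 differences were above 0 and the median was 0.31, and between 10 and 16 were called with 1 lung left out, but 6 with females alone. Manf, a secreted folding factor, read 11.73, 11.63, 11.71 and 11.91 in air and 12.57, 12.45, 12.58 and 12.26 in SHS lungs, and the disulfide isomerase Pdia6 read 11.99, 12.12, 12.08 and 12.13 against 12.78, 12.67, 12.72 and 12.49. Both groups were tight and apart. Hspa5 (BiP), the main chaperone of this compartment, rose by 0.45 ± 0.08, Calr (calreticulin) by 0.38 ± 0.07, Pdia4 by 0.69 ± 0.12 and Sdf2l1 by 0.81 ± 0.14. Creld2 rose by 0.68 ± 0.14, in 6 of 8 fits without 1 lung (up to 0.0597, without SHS replicate 1). Ddit3 (CHOP), the death-linked arm of the unfolded protein response, had a difference of 0.04 (adjusted p = 0.89). CCAAT was in 21 of 27 promoter windows of this list, 77.8%. Cytosolic heat shock genes had no call among 13, with a median of 0.06.

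Genes of housekeeping machinery differed by small amounts, nearly all in one direction. All 38 measured oxidative phosphorylation genes and all 34 proteasome genes had differences above 0, with medians of 0.17 and 0.18, and 5 and 6 of them passed the test. The mitochondrial ribosome had 36 of 38 above 0, with a median of 0.16 and 5 calls, and ribosome biogenesis 26 of 27, with 0.18 and 4 calls. Cytochrome c (Cycs) rose by 0.50 ± 0.09, the ATP synthase subunit Atp5g1 by 0.48 ± 0.08 and the nucleolar Nhp2 by 0.38 ± 0.08. The mitochondrial ribosomal gene Mrps25 rose by 0.36 ± 0.08 and the proteasome gene Psmd12 by 0.33 ± 0.07, in 3 and 5 of the 8 fits without 1 lung (up to 0.0988 without air replicate 2 and 0.0562 without SHS replicate 3). These counts rested on all lungs: without 1 lung they ran from 2 to 12, 0 to 13, 1 to 13 and 2 to 9 in the order given, the highest without SHS replicate 4. With quantile normalization the medians were 0.12, 0.13, 0.12 and 0.15 and the calls 4, 1, 2 and 2. Cytosolic ribosomal proteins had 1 call of 25, with a median of 0.08, or 0.03 with quantile normalization. In glycolysis and hypoxia 4 of 24 rose, among them Hk3, the hexokinase of myeloid cells, at 0.68 ± 0.10, Pgk1 at 0.47 ± 0.09 and the glucose carrier Slc2a1 at 0.36 ± 0.08 (4 of 8 fits, up to 0.0611 without SHS replicate 2). Of 26 sterol and fatty acid genes 2 rose, among them Idi1 at 0.49 ± 0.11 (4 of 8 fits, up to 0.0554 without SHS replicate 3). Heme synthesis and degradation had no call among 12, and Alad, the second enzyme of the pathway, read 9.77, 10.75, 10.63 and 10.74 in air and 9.79, 10.02, 9.87 and 9.76 in SHS lungs. Air replicate 1 alone stood with the SHS lungs (-0.61, adjusted p = 0.145). Without that lung, picked by its own value, the difference was -0.85 (adjusted p = 0.0207). Tfrc, the transferrin receptor through which dividing cells and red cell precursors take up iron, rose by 0.67 ± 0.08 and was the 1 call among 6 erythroid markers, whose median was -0.11.

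The genes that fell did so by less. The 15 with the smallest p comprised Atp6v1b1, Rap1gap, Myh7, Slc16a11, Tcf21, Bri3, Clk1, Mamdc2, Nrep, Adh7, Adamtsl2, Scgb3a2, Dbp, Dll4 and Ctsf, with differences from -0.33 (Bri3) to -0.84 (Scgb3a2), and each was called in all 8 fits that left out 1 lung. In all 15 no SHS lung reached the lowest air lung, as in 2.65% of all genes. The choice by smallest p favours both this and the calls in all 8 fits. Tcf21, a transcription factor of lipid-storing lung fibroblasts, read 12.40, 12.43, 12.40 and 12.42 in air and 12.07, 11.70, 11.71 and 11.93 in SHS lungs (-0.56 ± 0.09, adjusted p = 0.00315). Scgb3a2 (chromosome 18, 43764301 to 43767399), a secretoglobin of club cells, read 13.80, 13.90, 13.72 and 14.40 against 13.33, 12.98, 12.70 and 13.44. Dll4, a Notch ligand of growing vessels, read 10.11, 10.22, 10.00 and 10.04 against 9.67, 9.49, 9.44 and 9.92. Myh7, the slow muscle and cardiac myosin, fell by 0.62 ± 0.10. It was the 1 call among 18 heart and skeletal muscle markers, whose median was -0.06. Atp6v1b1, a proton pump subunit, and Rap1gap, which switches off the small GTPase Rap1, fell by 0.74 ± 0.12 and 0.44 ± 0.07. The splicing kinase Clk1 fell by 0.38 ± 0.07 and the lysosomal protease Ctsf by 0.44 ± 0.09, whereas a second probe set of Ctsf had 0.02, not called. In the list of ion transport genes, Atp6v1b1 was the 1 that fell and Fxyd4, a modulator of the sodium pump, the 1 that rose, by 1.56 ± 0.27, of 19.

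Of 33 enzymes that break down drugs and other foreign compounds 6 fell, none rose and 27 were not called, with a median of -0.28 and 7 differences above 0, and without SHS replicate 4 there were 16 and a median of -0.37. Adh7, an alcohol and retinol dehydrogenase, read 7.58, 7.73, 7.62 and 7.87 in air and 7.36, 7.33, 7.24 and 7.32 in SHS lungs. The epoxide hydrolase Ephx1 read 11.15, 11.18, 11.04 and 11.19 against 10.64, 10.61, 10.47 and 10.95. Both groups were apart in each gene, and these were the 2 calls left without air replicate 2, 3 or 4 or SHS replicate 1, 2 or 3, a count that fell to 2 each time. With females alone none of the 33 was called, and the adjusted p was 0.051 for Adh7 and 0.0532 for Ephx1. Pon1, a lipoprotein-bound esterase, read 8.91, 9.11, 8.97 and 9.19 against 7.95, 7.72, 7.61 and 8.87, so that SHS replicate 4 was nearly at air (-1.01 ± 0.24, adjusted p = 0.0284). The flavin monooxygenase Fmo2 fell by 0.58 ± 0.14 and the carboxylesterases Ces1g and Ces1d, members of a family of near copies, by 0.54 ± 0.14 and 0.43 ± 0.10. These 4 genes were called in 1 or 2 of the fits without 1 lung, with adjusted p up to 0.102 (Pon1), 0.103 (Fmo2), 0.152 (Ces1g) and 0.108 (Ces1d). Cyp2f2, the club cell cytochrome, had a difference of -0.40 (adjusted p = 0.0974), and -0.50 without SHS replicate 4 (adjusted p = 0.0155). The battery of the aryl hydrocarbon receptor, which senses smoke compounds, had no call among 9, with a median of 0.01, or -0.02 without SHS replicate 4. Cyp1a1 had 0.20, Cyp1b1 0.37, Nqo1 0.16 and the repressor Ahrr -0.01, with adjusted p of 0.689, 0.134, 0.452 and 0.978. Of 21 NRF2 target and glutathione genes 3 rose and 1 fell, among them Gpx2 at 0.34 ± 0.09 (1 of 8 fits, up to 0.159 without SHS replicate 1) and Txnrd1 at 0.32 ± 0.07 (5 of 8, up to 0.0632 without SHS replicate 2). The heme-degrading Hmox1 had 0.56 (adjusted p = 0.201).

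The clock output genes Dbp, Tef and Per3 and the repressor Nr1d2 fell, while Nfil3, which acts against Dbp on shared sites, rose. Dbp read 11.05, 10.90, 11.06 and 10.92 in air and 10.20, 10.34, 9.91 and 10.47 in SHS lungs, fully apart (-0.75 ± 0.14, adjusted p = 0.0074). Nfil3 read 7.23, 6.58, 6.66 and 6.93 against 7.70, 7.75, 7.97 and 7.09 (0.78 ± 0.16, adjusted p = 0.0104). Tef, Per3 and Nr1d2 fell by 0.51 ± 0.13, 0.55 ± 0.14 and 0.36 ± 0.09, in 1, 2 and 1 of the fits without 1 lung (up to 0.112 without SHS replicate 2, 0.146 without SHS replicate 1 and 0.122 without SHS replicate 2). The core activator Arntl had 0.41 and the repressor Nr1d1 -0.20 (adjusted p = 0.236 and 0.647). With females alone Arntl was called higher (adjusted p = 0.0444). In all, 1 of 19 clock genes rose and 4 fell, with a median of -0.20, or 2 and 6 without SHS replicate 4. With females alone 1 was higher and 3 were lower. The sources used here give no hour of day for each lung, and the part of sampling time in these values was not tested. The E-box CACGTG was in 6 of 25 promoter windows of the list, 24%, and in 6.02% of all windows. The D-box TTANGTAA, the site of Dbp and Nfil3, was in 1 of the 25, 4%, and in 2.06% of all windows.

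Matrix genes had calls in both directions, where 3.29% of all genes were called higher and 0.676% lower. Of 26 other stromal matrix genes 1 rose and 4 fell: the wound matrix proteoglycan Vcan rose by 0.86 ± 0.15, and Abi3bp, Chrdl1, Mamdc2 and Itgbl1 fell by 0.87 ± 0.19, 0.76 ± 0.20, 0.69 ± 0.13 and 0.68 ± 0.13. Abi3bp read 10.19, 9.86, 10.09 and 9.89 in air and 9.19, 8.45, 9.07 and 9.84 in SHS lungs, and Chrdl1, an antagonist of bone morphogenetic proteins, 8.45, 8.28, 8.58 and 8.29 against 7.71, 6.94, 7.50 and 8.40. In both, 3 SHS lungs were low and SHS replicate 4 was at or near air. Among 23 elastic fibre and leucine-rich proteoglycan genes 2 rose and 3 fell, with a median of -0.21: the crosslinking enzyme Lox rose by 0.34 ± 0.09 and Ltbp2 and Ogn fell by 0.50 ± 0.11 and 0.37 ± 0.09, while elastin (Eln) had -0.21 (adjusted p = 0.545). Of 18 collagens only Col6a2 was called (5.56%, near the 3.97% of all genes), at 0.64 ± 0.10, and Col1a1 had 0.38 (adjusted p = 0.23). Among 21 metalloproteinases and inhibitors Timp1 rose and Adamts1 fell, by 0.46 ± 0.12 (9.52% called). In the fit without SHS replicate 4, 7 of them were higher, where 7.66% of all genes were. With 1 lung left out, Chrdl1 was called in 1 fit, Ogn, Lox and Adamts1 in 2, Abi3bp in 4 and Ltbp2 in 5 (up to 0.143, 0.12, 0.161, 0.126, 0.0631 and 0.0756). Adamtsl2, a regulator of microfibrils, and Nrep, an actin-linked stromal protein, fell by 0.47 ± 0.09 and 0.39 ± 0.07.

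Markers of the structural cell types of the lung had calls in small numbers, to be read beside the 3.29% of all genes called higher and 0.676% lower. Endothelial markers had 2 calls of 19 (10.5%), both lower, with a median of -0.15. Without SHS replicate 4 there were 6, where 3.45% of all genes were lower. Esm1, a proteoglycan of sprouting vessels, read 7.82, 7.85, 7.91 and 7.61 in air and 6.60, 5.36, 6.30 and 7.57 in SHS lungs, and the angiopoietin receptor Tek 12.45, 12.42, 12.31 and 12.41 against 11.87, 11.66, 11.85 and 12.38. Again SHS replicates 1 to 3 were lower, whereas SHS replicate 4 lay just below the air lungs in Esm1 and among them in Tek, and Esm1 was called in 2 and Tek in 1 of the fits without 1 lung (up to 0.0779 without air replicate 3 and 0.119 without SHS replicate 2). Fibroblast markers had 2 of 17 lower (11.8%), Tcf21 and Ces1d, with a median of -0.24, and 1 higher and 6 lower without SHS replicate 4. Lymphatic endothelium, smooth muscle and pericytes, and mesothelium had no calls among 6, 14 and 7 markers, with medians of -0.05, 0.04 and 0.15. In the airway, club cell markers had 1 of 12 lower (8.33%), Scgb3a2, and 4 without SHS replicate 4. Ciliated cell markers had none of 18 called, but only 2 differences above 0 and a median of -0.16, with Foxj1, their master regulator, at -0.14 (adjusted p = 0.658). Basal cells had no call among 7, and neuroendocrine and nerve genes 1 of 11, the peptide gene Grp, which fell by 0.76 ± 0.19 in 2 of 8 fits (up to 0.133, without SHS replicate 2). Alveolar type 1 markers had none of 11 called, and type 2 markers 1 of 13, Il33, with the surfactant gene Sftpa1 at 0.09 (adjusted p = 0.507).

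Of 38 morphogens and transcription factors of lung development 1 fell, the growth factor receptor Fgfr2, by 0.33 ± 0.07 (5 of 8 fits, up to 0.0736 without SHS replicate 1). Their median was -0.15, 4 differences were above 0, and 8 were lower without SHS replicate 4. Of 16 imprinted growth genes only Plagl1, which restrains growth, was called, reading 11.73, 11.80, 11.77 and 11.69 in air and 11.20, 11.10, 11.02 and 11.64 in SHS lungs (-0.51 ± 0.10, adjusted p = 0.00982, in every fit). SHS replicate 4 alone lay close to air. Igf2 had -0.13 (adjusted p = 0.596). Genes of retinoic acid, a regulator of lung growth and repair, had 3 of 14 higher and none lower, with a median of -0.02. Aldh1a3, which makes retinoic acid, read 5.22, 5.35, 5.15 and 5.54 against 6.71, 6.18, 6.95 and 6.77, and rose as much in SHS replicate 4 as in the others (1.34 ± 0.16, adjusted p = 0.000276). This was the 1 called of 3 probe sets of the gene, whose lowest difference was 0.01. The retinol carrier Rbp4 rose by 0.82 ± 0.17, and Aldh1a2 by 0.66 ± 0.16, in 2 of 8 fits (up to 0.118, without SHS replicate 2).

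Markers of tissues and blood cells that can be taken with a lung had no call or 1 call per list, where 3.97% of all genes were called. Adipocyte and oesophageal or squamous markers had none of 9 and none of 8 called, platelet markers 1 of 9 (Pf4) and liver markers 1 of 8 (Afp), with medians of -0.09, 0.05, -0.04 and 0.14. The liver list had a mean level of 5.91 to 6.09 in air and 5.99 to 6.65 in SHS lungs. Chosen after its values were seen, Ddx4, a helicase of germ cells, read 3.51, 3.21, 3.39 and 3.51 in air and 6.29, 8.14, 7.82 and 3.60 in SHS lungs. It was near the floor of the array in all air lungs and in SHS replicate 4 and raised in the other 3, a difference of 3.05 (adjusted p = 0.0381) that was called in 1 of 8 fits (up to 0.13, without SHS replicate 2).

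The same contrast in males allowed a test of whether the female differences differed from the male ones. Because the labelling separates the female from the male arrays, sex and labelling cannot be told apart in it. A lack of calls in this test does not show that the differences are equal. Of the 599 genes higher in females 578 had a male difference above 0, and of the 123 lower 111 had one below 0. The share of all genes with like sign in both sexes was not counted, so these counts stand without a baseline. Over all 18193 genes, which are not independent, the differences of the sexes correlated at 0.624. In males 758 genes were higher (4.17%) and 449 lower (2.47%). No probe set passed the test of the difference between the sexes (smallest adjusted p = 0.141), with 3709 of 45037 at an unadjusted p under 0.05 (8.24%), and 1504 of 18193 genes (8.27%). List medians stood side by side at 0.86 in females and 0.69 in males for mitosis, 0.56 and 0.51 for S phase, 1.10 and 1.47 for the CXCR2 list, 0.45 and 0.48 for alternatively activated macrophages, 0.31 and 0.31 for the endoplasmic reticulum, and -0.28 and -0.20 for drug enzymes. B and T cell markers had 0.30 and 0.22 in females and 0.02 each in males, and mucus genes had 0.09 and 0.49. Differences between these medians were not tested.

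The 5 genes in each direction with the smallest p for a difference between the sexes are given as values, since none passed. On the side of a higher female difference, the antisense gene Znrd1as had 0.16 in females and -0.39 in males (adjusted p = 0.141), and the p53 target Ccng1 0.37 and -0.12 (adjusted p = 0.21). The centromere gene Itgb3bp had 0.36 and -0.30, the brain proteoglycan Bcan 0.07 and -0.54 and the mitochondrial Fastkd2 0.37 and -0.15. On the other side, the muscle gene Nrap had 0.05 and 0.56 (adjusted p = 0.21), Degs2, an enzyme of sphingolipid synthesis, -0.18 and 0.33 (adjusted p = 0.311), and Aldh1a3 1.34 and 2.43 (adjusted p = 0.34). The oncostatin receptor Osmr had -0.12 and 0.27, and Gpx2, a glutathione peroxidase of epithelium, 0.34 and 0.88 (adjusted p = 0.383 in both). Of genes described before, Tcf21 had -0.56 and -0.02 (difference -0.54 ± 0.13, adjusted p = 0.383) and Cxcr3, the receptor of type 1 lymphocytes, 0.36 and -0.25 (adjusted p = 0.265).

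**Figure D5:**
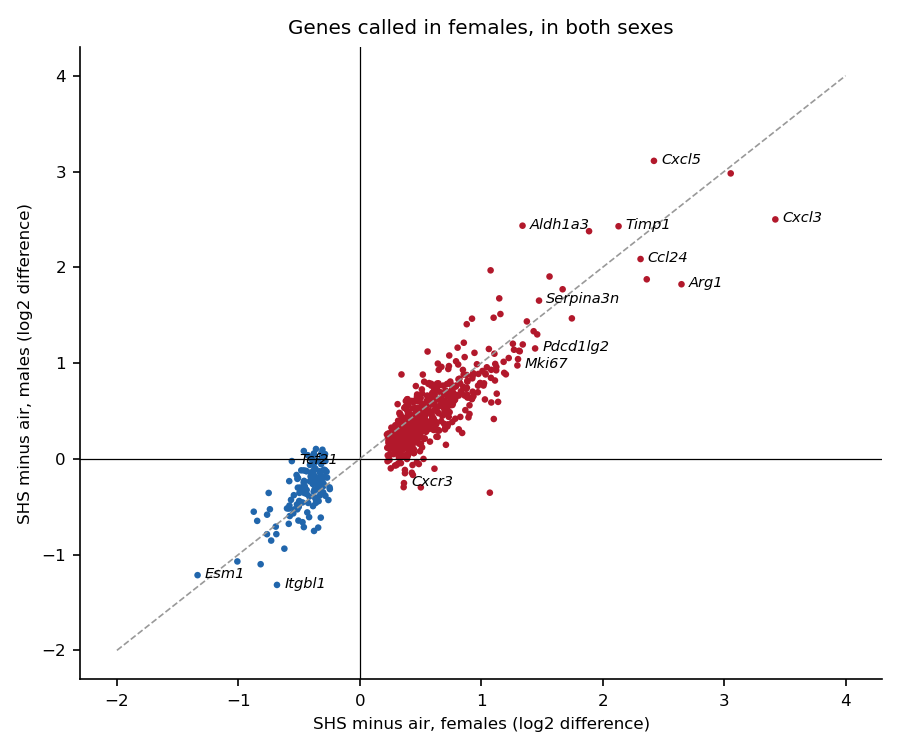
SHS minus air differences in females (x axis, log2) and males (y axis, log2) for the 722 genes called in females, red higher and blue lower, with the dashed line of equal differences. Most genes lie in the quadrants of like sign, and Tcf21 and Cxcr3 are among those near or across the male 0 line.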

How the data were processed

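Left lungs of 16 mice, 1 array each, were measured on Affymetrix Mouse Genome arrays, per the labels. The values the authors deposited are log2 values from 2.58 to 15.2 for 45101 probe sets; the method of normalization: not given in the sources used here. Limma is named in the submitters' processing notes. The number of arrays limits the precision. The values were used as deposited. The 64 control probe sets were left out, and 45037 were fitted as 4 group means over all 16 arrays in limma 3.58.1 (R 4.3.3; 12 residual and 5.56 prior degrees of freedom), which shares 1 estimate of spread. P-values were adjusted over all of them by Benjamini-Hochberg and called under 0.05. Levels were not compared between the sexes, which the labelling separates.

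By the platform annotation 1 symbol belonged to 34945 probe sets, several to 932 and none to 9160, and 34741 were matched to RefSeq on GRCm38.p6 by gene number. Each gene is represented by 1 probe set with a single symbol, that of highest mean across the 16 arrays. The 73 gene lists, 44 by function and 29 by cell type, hold 1473 entries, of which 1358 were measured. Members and lists were chosen with earlier results of these data known. Named were the 20 higher and 15 lower genes with the smallest p whose higher group mean was above the median of probe-set means (7.02), up to 6 called members per list and some not called, the 5 genes in each direction with the smallest p between the sexes, and single genes written down with the lists. Control differences were tested by exact permutation. The fit was tested on simulated data. Alternatives were quantile normalization, median centring, leaving out probe sets under the 40th percentile, a replicate block, females alone, array weights, a trended robust prior, other thresholds and leaving out each array. Replicate numbers did not pair the lungs: same-numbered air and SHS lungs correlated in their deviations at -0.0796, 0.267, -0.0763 and 0.0934. Promoter windows were the 250 bases before each RefSeq start. Python 3.11.15, pandas 2.3.3, matplotlib 3.10.9 and data.table (1.17.8) were used.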

Additional observations from a re-analysis of the deposited data

Results flagged for a closer look

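Within each group of 4 lungs, the gap of the highest or lowest lung to the nearest other, divided by the whole range, was set against Dixon's 95% critical value for 4 values. Of 616 such groups examined, 34 passed it, where chance alone passes about 5%, and 13 of the 34 were SHS replicate 4.

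SHS replicate 4 was the lung apart, below the other 3 SHS lungs, in Rrm2 (0.869, at 9.40 where the others were 10.03 to 10.12), Dtl (0.899, at 6.82 where the others were 7.18 to 7.22), Il33 (0.838, at 11.66 where the others were 12.04 to 12.11), Prg2 (0.925, at 6.52 where the others were 8.48 to 8.64), Mki67 (0.906, at 9.49 where the others were 10.25 to 10.33), Il4 (0.838, at 6.17 where the others were 6.71 to 6.81), Epx (0.835, at 5.05 where the others were 7.09 to 7.50), Slc26a4 (0.868, at 12.21 where the others were 12.90 to 13.01), Bcl3 (0.875, at 8.53 where the others were 8.97 to 9.03) and Sele (0.839, at 4.84 where the others were 5.24 to 5.32). It was also the lowest for the medians of type 2 cytokines, receptors and regulators (0.844, at -0.02), NF-kB targets, TNF, IL-1, IL-6 and IL-17 family (0.919, at 0.07) and eosinophils (0.852, at -0.82).

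Another lung was apart in these genes, given with its value: air replicate 3 in Scgb1a1 (0.916, at 14.91), air replicate 4 in Serpina3n (0.889, at 10.53), air replicate 2 in Rrm2 (0.924, at 8.28), air replicate 2 in Prim1 (0.87, at 7.99), air replicate 1 in Ube2t (0.841, at 6.91), air replicate 3 in Cxcl5 (0.975, at 5.54), air replicate 1 in Il25 (0.866, at 4.29), air replicate 4 in Socs1 (0.875, at 7.38), SHS replicate 3 in Foxp3 (0.915, at 5.31), air replicate 1 in Alad (0.877, at 9.77), air replicate 1 in Slc16a11 (0.909, at 8.88), air replicate 1 in Fmo2 (0.94, at 13.17) and air replicate 4 in Igf2 (0.838, at 7.93). The same held for the list medians of metalloproteinases and their inhibitors in air replicate 1 (0.941, at 0.07), ribosome biogenesis and nucleolus in air replicate 1 (0.865, at 0.08), proteasome and immunoproteasome in air replicate 3 (0.966, at -0.03), NRF2 targets and glutathione defence in air replicate 3 (0.849, at -0.08), regulatory T cell and checkpoint genes in air replicate 3 (0.832, at -0.09), imprinted growth genes in SHS replicate 2 (0.919, at 0.00), alveolar type 1 cells in air replicate 3 (0.949, at -0.09) and B cells in air replicate 4 (0.911, at -0.27).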

How the results depend on the processing

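The probe sets called numbered 1294, and 1220 with quantile normalization, 1257 after median centring, 1802 without low probe sets and 1685 with a trended robust prior. Fitting the female arrays alone gave 448, of which 425 were among the 1294, and array weights gave 3985. An adjusted p under 0.10 gave 2334, and a minimum of 1.5-fold 366. Leaving out 1 female lung gave 657 (without SHS replicate 1) to 3604 (without SHS replicate 4), and the latter included 1273 of the 1294; the others were 674, 688 and 797 without air replicates 2, 3 and 4, and 683 and 723 without SHS replicates 2 and 3. With replicate number as a block 1023 were called, 876 of them among the 1294, although the numbers do not pair the lungs. The test between the sexes called none in the main fit or in any alternative run for it. Of 162 called genes that are named, 151 were called with quantile normalization, 157 after centring, 133 with the block, 82 in females alone, 162 with array weights and 104 to 159 without 1 female lung, and none changed direction. In females alone the calls per list were 2 of CC chemokines, 1 of NF-kB targets, 2 of oxidative phosphorylation and none of the proteasome, the mitochondrial ribosome, ribosome biogenesis, microbial sensing and NRF2 targets, in place of 6, 7, 5, 6, 5, 4, 3 and 4, and 22 and 36 of the S phase and mitosis lists in place of 30 and 40. The number of arrays is the limit of precision here, and genes near the top of the scale, such as Sftpc and Scgb1a1, may be compressed, which was not tested.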
